A study of Mus musculus with 12 samples.

Results

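Interferon gamma GTPases and the MHC class I antigen-presentation pathway are described here through 36 genes of the 35492 gene symbols in the deposited tables. The members were chosen from what their products are known to do, by a list of names and with earlier results of these data known, and all 36 were found by symbol. They comprise 9 guanylate-binding proteins (Gbp2 to Gbp10), 6 immunity-related GTPases (Irgm1, Irgm2, Igtp, Iigp1, Tgtp1 and Tgtp2), 7 genes of the receptor and its transcriptional response (Ifngr1, Ifngr2, Jak2, Irf1, Irf8, Socs1 and Nlrc5), 13 genes of antigen processing and MHC class I (Psmb8, Psmb9, Psmb10, Psme1, Psme2, Tap1, Tap2, Tapbp, B2m, H2-K1, H2-D1, H2-T23 and H2-Q7) and Ido1. All 36 passed the filter on low values, a group mean of 1 TPM or more in any group, where TPM (the deposited unit) is a length-normalised share of a library's transcripts.

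The study sequenced RNA from mouse CD4+ T cells: follicular helper T (Tfh) cells taken from tumours, Tfh cells made in culture and T helper 1 (Th1) cells made in culture. There were 12 libraries, 3 in each of 4 groups, from C57BL/6J mice of 7 weeks. The Tfh_tumour group was CD4+ CXCR5+ PD1+ cells sorted from MC38 tumours, and MC38 is a mouse colon carcinoma cell line. The Tfh_WT group started from naive T cells of the spleen and lymph nodes of wild-type mice, stimulated on plates coated with antibodies to CD3 and CD28, with IL-6 and IL-21 at 50 ng/ml each and blocking antibodies to IL-4, IFNγ and TGFβ at 10 µg/ml each. The Tfh_OTII group was cultured with the same cytokines and antibodies from naive T cells of OT-II mice, whose T cell receptor transgene recognises an ovalbumin peptide. The Th1_WT group was cultured from naive wild-type T cells with IL-12 at 10 ng/ml and a blocking antibody to IL-4 at 10 µg/ml, and its protocol names no antibody to IFNγ. The time in culture of Tfh_WT and Th1_WT is uncertain, with 24 h in their titles and 48 h in the protocol, and for Tfh_OTII both give 48 h. All 3 cultured groups were stimulated through CD3 and CD28, and both cultured Tfh groups were kept under antibody to IFNγ. The labels do not say that libraries of a group came from separate animals, so p-values measure the spread between these libraries only.

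Interferon gamma binds a receptor made of Ifngr1 and Ifngr2 chains, whose kinases Jak1 and Jak2 pass the signal on to genes with gamma-activated sites (GAS). The induced factor Irf1 binds interferon-stimulated response elements (ISRE). Among the targets are GTPases that assemble on the vacuoles of intracellular pathogens and the machinery that cuts cytosolic proteins into peptides and loads them on MHC class I for CD8+ T cells. Type I interferons bind a receptor of their own and reach many of the same genes. T cells are both a main source of interferon gamma and a target of it.

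Most GTPases were higher in the Tfh cells from tumours than in the cultured Tfh cells, and several were also higher than in the cultured Th1 cells. A gene was called when limma, fitted on log2(TPM + 1) over all genes and libraries, gave an adjusted p below 0.05 in the same direction both on the values as deposited and after median-of-ratios scaling. In Tfh_tumour against Tfh_WT, 10 of 36 members were higher, against 0.987% of all genes tested: Gbp4, Gbp6, Gbp7, Gbp9, Gbp10, Irgm1, Irgm2, Iigp1, Tgtp2 and Irf8. In Tfh_tumour against Tfh_OTII, 15 members were higher, against 6.75% of all genes: the same 10 together with Gbp3, Nlrc5, B2m, H2-D1 and H2-Q7. In Tfh_tumour against Th1_WT, 9 members were higher, against 10.4% of all genes: Gbp3, Gbp6, Gbp7, Gbp8, Gbp9, Gbp10, Iigp1, Tgtp2 and Ifngr1. These 3 comparisons share the tumour libraries and are therefore not independent of one another.

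Psme1, a subunit of the proteasome activator, was the 1 member lower in Tfh_tumour than in Tfh_OTII, where 6.87% of all genes were lower. By limma, 0 members were lower in Tfh_tumour than in Tfh_WT (background 0.875%; 0 also at an unadjusted p below 0.05) or than in Th1_WT (background 0.549%; 0 unadjusted). Between Tfh_OTII and Tfh_WT, 0 members were called in either direction (background 0.652% higher and 1.14% lower), and 0 passed at an unadjusted p below 0.05. In Tfh_WT against Th1_WT, Jak2 was the 1 member higher, against 9.03% of all genes, and 0 were lower, against 0.506%; at an unadjusted p below 0.05 these counts were 2 (background 18.2%) and 0.

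Counted over the GTPases alone, 9 of 15 were higher in Tfh_tumour than in Tfh_WT (background 0.987%), 10 than in Tfh_OTII (6.75%) and 8 than in Th1_WT (10.4%). Of the 13 antigen-presentation members, 3 were higher and 1 lower against Tfh_OTII, where 6.75% and 6.87% of all genes were, so the 1 lower lay near the background. By limma 0 of the 13 were called against the other 2 groups. At an unadjusted p below 0.05, 9 were higher than in Tfh_WT (background 6.05%) and 1 higher than in Th1_WT (background 19.3%). Separation of the libraries was wider than the calls: for 28 of 36 members every tumour library lay above every Tfh_WT library after scaling, a pattern found in 10.2% of all genes. For Gbp2, Jak2 and Psme1 every tumour library lay below every Tfh_WT library after scaling. The share of all genes with that reverse pattern is not given here. The median log2 fold change of the members on deposited values was 1.13 against Tfh_WT, where that of all genes was 0.10, and 1.07 against Tfh_OTII, where that of all genes was 0.06. The count against Tfh_WT was 3 without Tfh_WT replicate 1, 3 without replicate 2 and 6 without replicate 3. The share of all genes called was not counted there, so a loss particular to the members cannot be told from a general one.

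**Figure D1:**
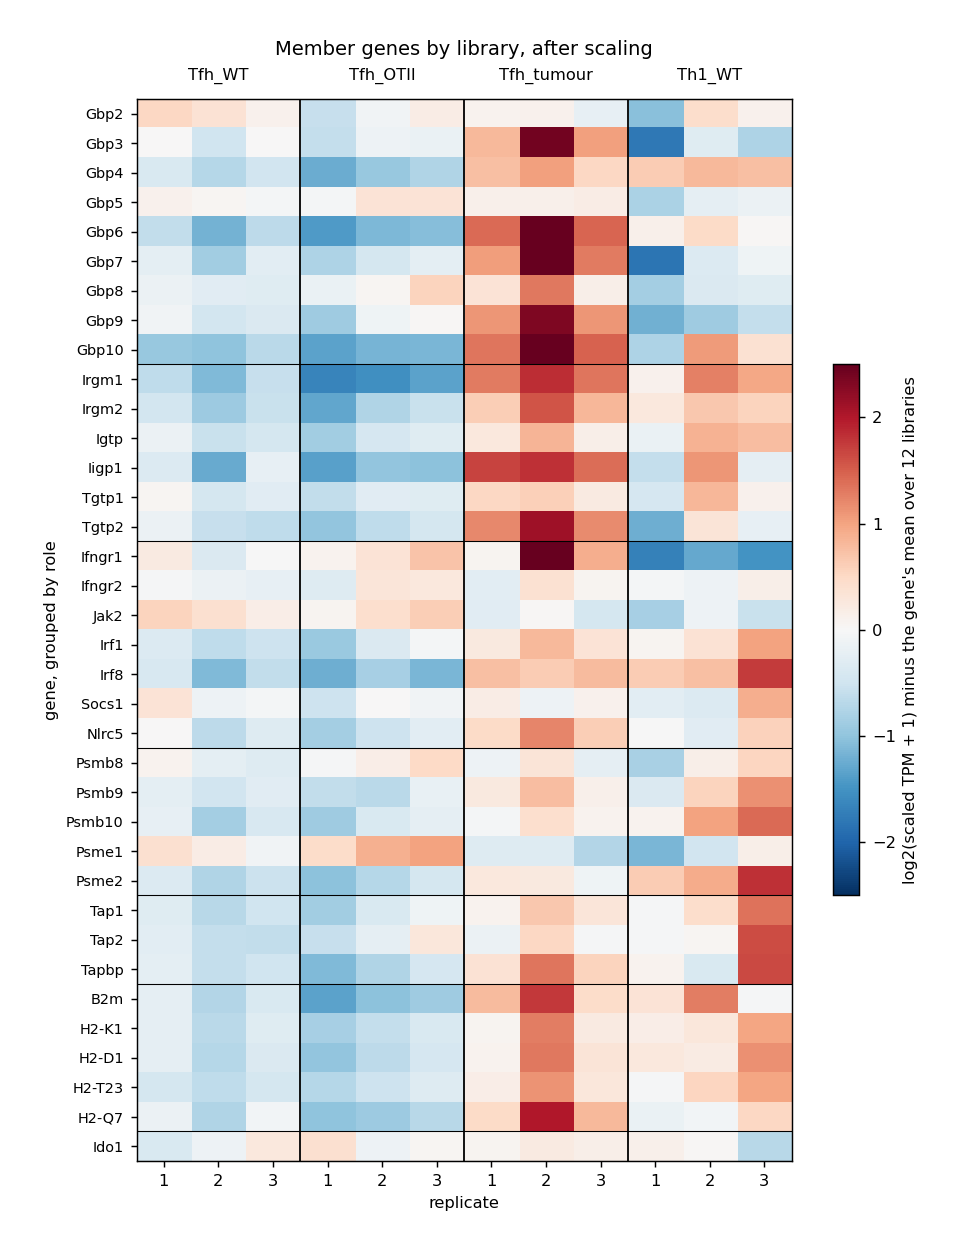
Level of the 36 members (rows, in order of role) in the 12 libraries (columns), as log2(scaled TPM + 1) minus the gene's mean over the libraries, with colours that stop at ±2.5. Most GTPase rows are highest in the 3 tumour libraries, with Gbp2 and Gbp5 among the exceptions, while most rows of the proteasome, transport and class I genes are high in both the tumour and the Th1_WT libraries.

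The scale matters most where Th1_WT is compared, because TPM are shares, with the same total in every library. The 12 most abundant gene models took 52.1% to 68.1% of that total in the Th1_WT libraries and 15.4% to 32.6% elsewhere, which left less of it for every other gene. Th1_WT replicates 1, 2 and 3 also had 35.7%, 19.5% and 41.4% of gene symbols at 0, against 8.20% to 23.9% elsewhere. The reason was not tested. Scaling shifted the median log2 fold change of all genes by 0.63 in Tfh_WT against Th1_WT and by 0.72 in Tfh_tumour against Th1_WT. On deposited values alone, 10 members were higher in Tfh_WT than in Th1_WT (background 41.1%), and after scaling alone 10 others were lower (background 5.35%): Gbp4, Gbp6, Irgm1, Irgm2, Irf1, Irf8, Psmb10, Psme2, Tap1 and H2-T23. In Tfh_tumour against Th1_WT, 31 members were higher as deposited (background 49.3%) and 9 after scaling (background 10.4%), and 1, Psme2, was lower after scaling alone (background 7.57%). The members' median against Th1_WT was 0.29 as deposited and −0.73 after scaling for Tfh_WT, where the medians of all genes were 0.78 and 0.14. Differences from Th1_WT are therefore given below both as deposited and after scaling, and are called only where both passed. In what follows each fold change is a log2 difference of group means, first group minus second, with its limma SE after the ± sign (n = 3 libraries in each group).

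One tumour library stood apart. Tfh_tumour replicate 2 was the highest tumour library for 34 of 36 members (Irf8 and Socs1 were the exceptions), against 44.5% of all genes tested, and its level was a median 1.77 times the mean of replicates 1 and 3, against 1.09 for all genes. Without it, 7 members were higher than in Tfh_WT (background 0.549%), 12 higher and 1 lower than in Tfh_OTII (background 4.58% and 5.26%) and 6 higher than in Th1_WT (background 6.84%). The calls that ended were Gbp7, Tgtp2 and Irf8 against Tfh_WT, Gbp3, Nlrc5 and H2-D1 against Tfh_OTII, and Gbp8, Gbp10 and Iigp1 against Th1_WT.

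Transcripts of some other cell types were also at a higher level in the tumour libraries. The summed level of 12 macrophage and monocyte genes (Lyz2, Csf1r, C1qa and others) was 88.8, 889 and 235 TPM in tumour replicates 1, 2 and 3, against 26.1 to 35.6 in Tfh_WT, 15.01 to 38.01 in Tfh_OTII and 8.68 to 11.6 in Th1_WT. Of the 12, 6 were higher in Tfh_tumour than in Tfh_WT, against 0.987% of all genes (3 without tumour replicate 2, against 0.549%). The sum of 5 neutrophil genes was 14.2, 491 and 93.2 TPM in the tumour libraries, against 11.5 to 21.1 in Tfh_WT, so replicate 1 lay within the range of the cultured cells. That of 11 dendritic cell genes was 189, 886 and 329 TPM, against 70.9 to 82.7, and most of it came from 4 MHC class II genes (Cd74, H2-Aa, H2-Ab1 and H2-Eb1), which summed to 165, 815 and 296 TPM against 49.6 to 63.6. The other 7 summed to 24.1, 71.2 and 33.4 TPM against 19.1 to 27.7. This sum includes Batf3, a factor of dendritic cells that T cells also express, which went the other way. Batf3 stood at 1.21, 3.52 and 4.09 TPM in the tumour libraries and 8.03, 6.19 and 6.40 in Tfh_WT. For Flt3, Xcr1, Siglech and Zbtb46 every tumour library lay above every Tfh_WT library as deposited, while Itgax and Clec9a overlapped. At an unadjusted p below 0.05 by limma, 7 of the 11 genes were higher than in Tfh_WT (background 6.05%) and 1 lower. The sum of 8 B cell genes was 139, 155 and 144 TPM, against 72.7 to 94.4 in Tfh_WT and 43.97 to 56.5 in Tfh_OTII. Natural killer cell genes (5) summed to 79.5, 72.7 and 49.7 TPM against 50.4 to 88.6 in Tfh_WT. Every tumour library was above Tfh_OTII (14.9 to 30.4) and Th1_WT (7.96 to 13.1) for that list. CD8 T cell genes (2) summed to 11.8, 15.4 and 11.9 TPM against 13.97 to 17.02 in Tfh_WT, 21.5 to 27.6 in Tfh_OTII and 6.91 to 12.6 in Th1_WT. Epithelial genes (6) summed to 5.73, 16.2 and 9.90 TPM against 7.21 to 9.05, 6.27 to 11.96 and 0.871 to 1.77 in the same groups. Thus replicate 2 was the highest tumour library for the macrophage, neutrophil, dendritic cell and B cell lists as well as for most members, and no gene of those 4 lists was at 0 in all libraries of any group. The T cell identity genes summed to 2319, 3919 and 2416 TPM in the tumour libraries and 2604 to 3149 in Tfh_WT. Cd4 at 120.3, 173 and 132 TPM and Cxcr5 at 14.7, 10.997 and 16.3 TPM, both used in the sort, were present in the former. Other lineage genes were divided. Bcl6 stood at 10.99, 18.8 and 13.8 TPM in the tumour libraries and 6.41, 5.43 and 6.43 in Tfh_WT. Il21 stood at 9.25, 5.28 and 6.14 TPM against 97.8, 92.8 and 75.1 in Tfh_WT. Tbx21, at 14.6, 25.9 and 18.96 TPM, overlapped Th1_WT at 9.85, 11.5 and 25.7. The part of transcripts from other cells in the members' levels was not tested, and in bulk RNA more cells of a type and more RNA per cell cannot be told apart.

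**Figure D2:**
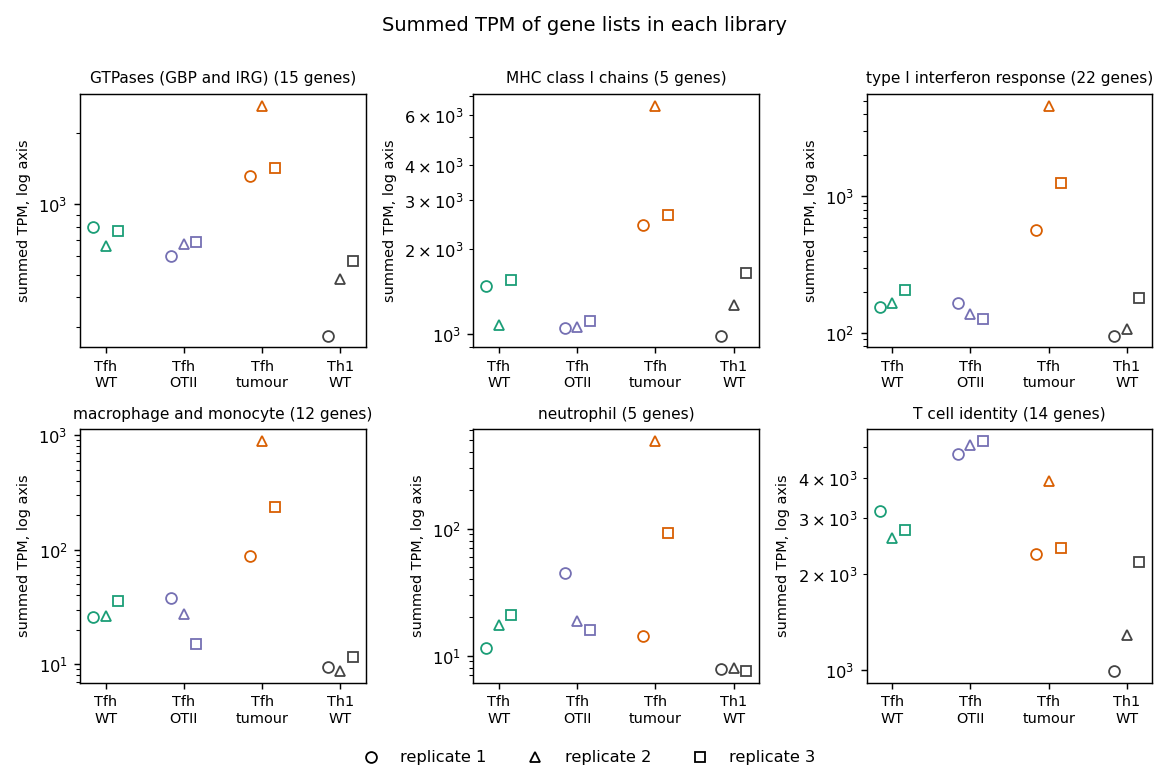
Summed TPM as deposited (log axis) of 6 gene lists in each library, 1 point per library, by group: the GTPases, the class I chains, the type I interferon response, macrophage and monocyte genes, neutrophil genes and T cell identity genes. Tumour replicate 2 is the highest library in every panel but that of T cell identity, where the Tfh_OTII libraries at 4759 to 5234 TPM lie above it, and has its macrophage sum at 889 and its neutrophil sum at 491 TPM. Much of the Tfh_OTII T cell identity sum is the 1 gene Trac. It stands at 1915 to 2068 TPM there, 249 to 366 in Tfh_WT and 854 in tumour replicate 2.

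Promoters of 8 GTPases and of Irf1 are shown as examples that hold matches to the interferon elements described above. The windows of Gbp3, Irf8, Socs1, Psmb8, Psme1, B2m and H2-T23 also hold matches and are not printed. Windows from 250 bases before to 50 after the transcription start were taken from RefSeq (build GRCm38.p6), which gave one for 27 of the 36 members; Gbp4, Gbp6, Gbp8, Gbp9, Gbp10, Iigp1, Nlrc5, Tap2 and Ido1 are named only. Each is printed 5′ to 3′ on the gene's own strand, with capitals marking each match to GAS (TTCNNNGAA) or to ISRE (GAAANNGAAA), both searched on both strands, so that an ISRE can appear as its reverse complement.
Tgtp1 (chr11:48992197-48992496, minus strand): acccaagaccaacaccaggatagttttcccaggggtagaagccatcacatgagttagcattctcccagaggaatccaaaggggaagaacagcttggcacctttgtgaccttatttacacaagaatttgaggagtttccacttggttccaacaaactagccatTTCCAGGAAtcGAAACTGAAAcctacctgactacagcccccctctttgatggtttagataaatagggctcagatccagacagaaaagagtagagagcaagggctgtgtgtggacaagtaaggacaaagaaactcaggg
Tgtp2 (chr11:49064163-49064462, minus strand): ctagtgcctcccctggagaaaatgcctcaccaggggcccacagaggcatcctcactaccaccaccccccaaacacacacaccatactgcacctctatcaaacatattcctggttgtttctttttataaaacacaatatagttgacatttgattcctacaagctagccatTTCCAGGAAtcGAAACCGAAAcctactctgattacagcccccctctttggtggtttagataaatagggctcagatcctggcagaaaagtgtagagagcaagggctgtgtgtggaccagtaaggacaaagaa
Igtp (chr11:58199306-58199605, plus strand): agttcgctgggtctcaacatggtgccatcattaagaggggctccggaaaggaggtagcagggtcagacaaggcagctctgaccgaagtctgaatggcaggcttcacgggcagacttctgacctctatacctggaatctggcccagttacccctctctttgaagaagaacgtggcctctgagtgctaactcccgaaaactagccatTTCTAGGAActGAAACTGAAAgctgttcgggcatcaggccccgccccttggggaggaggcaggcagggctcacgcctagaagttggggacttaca
Irgm2 (chr11:58214727-58215026, plus strand): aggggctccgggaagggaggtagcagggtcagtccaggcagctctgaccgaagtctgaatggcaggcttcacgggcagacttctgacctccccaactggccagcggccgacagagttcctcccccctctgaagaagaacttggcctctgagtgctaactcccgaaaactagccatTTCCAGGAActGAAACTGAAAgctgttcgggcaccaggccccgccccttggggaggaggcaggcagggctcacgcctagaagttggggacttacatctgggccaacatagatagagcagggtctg
Irgm1 (chr11:48871371-48871670, minus strand): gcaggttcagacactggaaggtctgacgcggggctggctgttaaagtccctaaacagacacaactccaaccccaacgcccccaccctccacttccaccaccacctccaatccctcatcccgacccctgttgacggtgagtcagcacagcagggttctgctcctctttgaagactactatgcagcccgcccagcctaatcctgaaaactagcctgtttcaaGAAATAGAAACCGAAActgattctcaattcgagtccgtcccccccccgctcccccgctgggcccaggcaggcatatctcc
Gbp7 (chr3:142530086-142530385, plus strand): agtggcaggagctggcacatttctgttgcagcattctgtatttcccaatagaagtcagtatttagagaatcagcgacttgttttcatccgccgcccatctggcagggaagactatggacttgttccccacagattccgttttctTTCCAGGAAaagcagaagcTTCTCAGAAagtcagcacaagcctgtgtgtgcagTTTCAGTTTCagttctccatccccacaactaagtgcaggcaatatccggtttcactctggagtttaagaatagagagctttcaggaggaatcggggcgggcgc
Gbp5 (chr3:142496684-142496983, plus strand): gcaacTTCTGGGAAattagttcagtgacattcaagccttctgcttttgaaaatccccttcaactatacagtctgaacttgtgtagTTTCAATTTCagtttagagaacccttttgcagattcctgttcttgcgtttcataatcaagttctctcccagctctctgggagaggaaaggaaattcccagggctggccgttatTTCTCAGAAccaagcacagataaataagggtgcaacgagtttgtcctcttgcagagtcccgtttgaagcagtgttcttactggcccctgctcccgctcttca
Gbp2 (chr3:142620413-142620712, plus strand): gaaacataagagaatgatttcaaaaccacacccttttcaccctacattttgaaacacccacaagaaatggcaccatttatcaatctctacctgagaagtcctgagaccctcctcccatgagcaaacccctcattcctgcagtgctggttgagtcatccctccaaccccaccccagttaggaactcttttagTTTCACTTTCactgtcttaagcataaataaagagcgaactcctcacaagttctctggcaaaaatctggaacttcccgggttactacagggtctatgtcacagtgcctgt
Irf1 (chr11:53769764-53770063, plus strand): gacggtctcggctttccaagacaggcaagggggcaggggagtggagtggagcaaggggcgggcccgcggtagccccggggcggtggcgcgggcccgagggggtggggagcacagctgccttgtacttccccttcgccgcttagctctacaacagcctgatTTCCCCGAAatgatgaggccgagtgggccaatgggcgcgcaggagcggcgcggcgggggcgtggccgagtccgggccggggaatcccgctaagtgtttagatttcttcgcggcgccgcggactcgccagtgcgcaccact

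In the Tgtp1, Tgtp2, Igtp and Irgm2 windows a GAS starts 88, 81, 45 and 75 bases before the transcription start, and an ISRE on the same strand starts 11 bases after the start of the GAS. That spacing was noticed in these windows and then counted: it occurs in 5 of 32851 windows (0.0152%), these 4 and that of the gene model Gm12185. The 5 are related sequences and not independent occurrences. Of the 31-base words in Tgtp2 transcripts, 89.2% also occur in Tgtp1 and 7.81% in Gm12185. The printed Igtp and Irgm2 windows are nearly alike around the elements. Irgm1 has 2 overlapping ISRE matches, 30 and 24 bases before its start, and no GAS. Gbp7 has GAS matches 106 and 87 bases before its start and an ISRE at 53, Gbp5 has GAS matches at 245 and 52 and an ISRE at 165, and Gbp2 has an ISRE at 59. Irf1 has a GAS 90 bases before its start and no ISRE.

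Among the GTPases with a window, 9 of 9 hold an ISRE and 6 hold a GAS. Of the 12 antigen-presentation members with a window, 3 hold an ISRE (Psme1, B2m and H2-T23) and 1 holds a GAS (Psmb8). Over all windows, 3.44% hold an ISRE, 8.3% a GAS and 0.454% both, against 13, 9 and 6 of the 27 members. A match is a description of letters and not of a bound site, and a window without one says nothing of the factor. The ISRE was found alike in Gbp2 and Gbp5, which were called in no comparison, and in Irgm1, Gbp7 and Tgtp2, which were higher in Tfh_tumour.

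Guanylate-binding proteins are large GTPases that coat pathogen vacuoles and bacteria and help to activate inflammasomes. In this genome they lie in a pair of clusters, Gbp2, Gbp3, Gbp5 and Gbp7 on chromosome 3 and Gbp4, Gbp6, Gbp8, Gbp9 and Gbp10 on chromosome 5 (positions here and below from GENCODE M21, GRCm38). Gbp10 (chromosome 5, 105215699 to 105239533, minus strand) stood at 3.86, 3.73 and 5.61 TPM in Tfh_WT, 3.42, 3.35 and 3.13 in Tfh_OTII, 2.16, 8.01 and 6.90 in Th1_WT and 23.9, 80.7 and 30.1 in Tfh_tumour, in replicate order. Every tumour library lay above every other library, and the Th1_WT libraries spread more widely than those of the cultured Tfh groups. Its log2 fold change after scaling was 2.73 ± 0.43 (SE) against Tfh_WT (adjusted p = 0.00788), 3.07 ± 0.43 against Tfh_OTII (adjusted p = 0.000705) and 1.63 ± 0.43 against Th1_WT (adjusted p = 0.0213; 2.71 ± 0.45 as deposited), and without tumour replicate 2 the last was, after scaling, 1.19 and no longer passed.

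Gbp6 (chromosome 5, 105270702 to 105293698, minus strand) stood at 25.9, 17.2 and 28.9 TPM in Tfh_WT, 18.2, 19.02 and 18.3 in Tfh_OTII, 21.2, 23.999 and 24.99 in Th1_WT and 113, 299 and 131 in Tfh_tumour. The tumour libraries were again above all others, while Tfh_WT and Th1_WT overlapped on this scale. After scaling, the log2 fold change was 2.61 ± 0.29 against Tfh_WT (adjusted p = 0.00145), 2.99 ± 0.29 against Tfh_OTII (adjusted p = 6.72e-05) and 1.58 ± 0.29 against Th1_WT (adjusted p = 0.0037; 2.76 ± 0.32 as deposited). Gbp6 and Gbp10 are near copies: 80.8% of the 31-base words of Gbp10 also occur in Gbp6. The gene model Gm43302 holds 67.8% of the words of Gbp6 and 76.7% of those of Gbp10. Reads could therefore be split among all of these, and the levels of Gbp6 and Gbp10 are uncertain.

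Gbp7 (chromosome 3, 142530342 to 142550149, plus strand) stood at 16.4, 10.5 and 18.6 TPM in Tfh_WT, 14.2, 15.3 and 16.2 in Tfh_OTII, 2.32, 6.52 and 11.2 in Th1_WT and 43.5, 178 and 59.2 in Tfh_tumour. All tumour libraries exceeded all others, with replicate 2 far above the other two. Its log2 fold change after scaling was 2.16 ± 0.47 against Tfh_WT (adjusted p = 0.0332), 2.18 ± 0.47 against Tfh_OTII (adjusted p = 0.00834) and 2.45 ± 0.47 against Th1_WT (adjusted p = 0.00449), and against Tfh_WT it was 1.64 without replicate 2, short of the threshold.

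Gbp9 (chromosome 5, 105077630 to 105139539, minus strand) stood at 28.7, 22.2 and 26.9 TPM in Tfh_WT, 20.4, 29.98 and 30.2 in Tfh_OTII, 6.11, 6.78 and 12.03 in Th1_WT and 68.6, 203 and 78.4 in Tfh_tumour. Its libraries fell into tumour above both cultured Tfh groups, which overlapped, above Th1_WT. The log2 fold change after scaling was 2.40 ± 0.34 against Th1_WT (adjusted p = 0.00106; 3.54 ± 0.37 as deposited), 1.81 ± 0.34 against Tfh_WT (adjusted p = 0.0164) and 1.83 ± 0.34 against Tfh_OTII (adjusted p = 0.00352).

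Gbp3 (chromosome 3, 142560026 to 142573209, plus strand) stood at 25.6, 17.8 and 29.2 TPM in Tfh_WT, 20.7, 24.6 and 21.8 in Tfh_OTII, 3.14, 8.60 and 8.73 in Th1_WT and 46.5, 180.1 and 61.9 in Tfh_tumour. No tumour library overlapped another group here either. On the scaled values the log2 fold change was 2.38 ± 0.43 against Th1_WT (adjusted p = 0.00321; 3.48 ± 0.45 as deposited) and 1.72 ± 0.43 against Tfh_OTII (adjusted p = 0.0168), while 1.58 ± 0.43 against Tfh_WT did not pass (adjusted p = 0.0799). Without tumour replicate 2 the value against Tfh_OTII was 1.21 and no longer passed.

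The other guanylate-binding proteins differed among themselves. Gbp4 ranged over 33.4 to 166 TPM and was higher in the tumour group by 1.29 ± 0.20 against Tfh_WT and 1.74 ± 0.20 against Tfh_OTII, while against Th1_WT it gave 1.23 ± 0.23 as deposited and 0.03 ± 0.20 after scaling (adjusted p = 0.00101 and 0.954) and was not called. Gbp8 ranged over 5.07 to 66.1 TPM and was higher only against Th1_WT among the tests run (1.11 ± 0.30 after scaling and 2.23 ± 0.33 as deposited; 0.75 after scaling and not passing without tumour replicate 2). Gbp2 and Gbp5, the 2 of this family called in no comparison on both scales, were picked for naming with their values in view. Gbp2 stood at 251, 230.1 and 216 TPM in Tfh_WT and 192, 241 and 179 TPM in Tfh_tumour, and Gbp5 at 113, 111 and 116 and 119, 148 and 142 TPM. Their log2 differences between these groups after scaling were −0.34 ± 0.34 and 0.12 ± 0.21. These 2 were the most abundant of the family in Tfh_WT, and Gbp10 was the least.

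**Figure D3:**
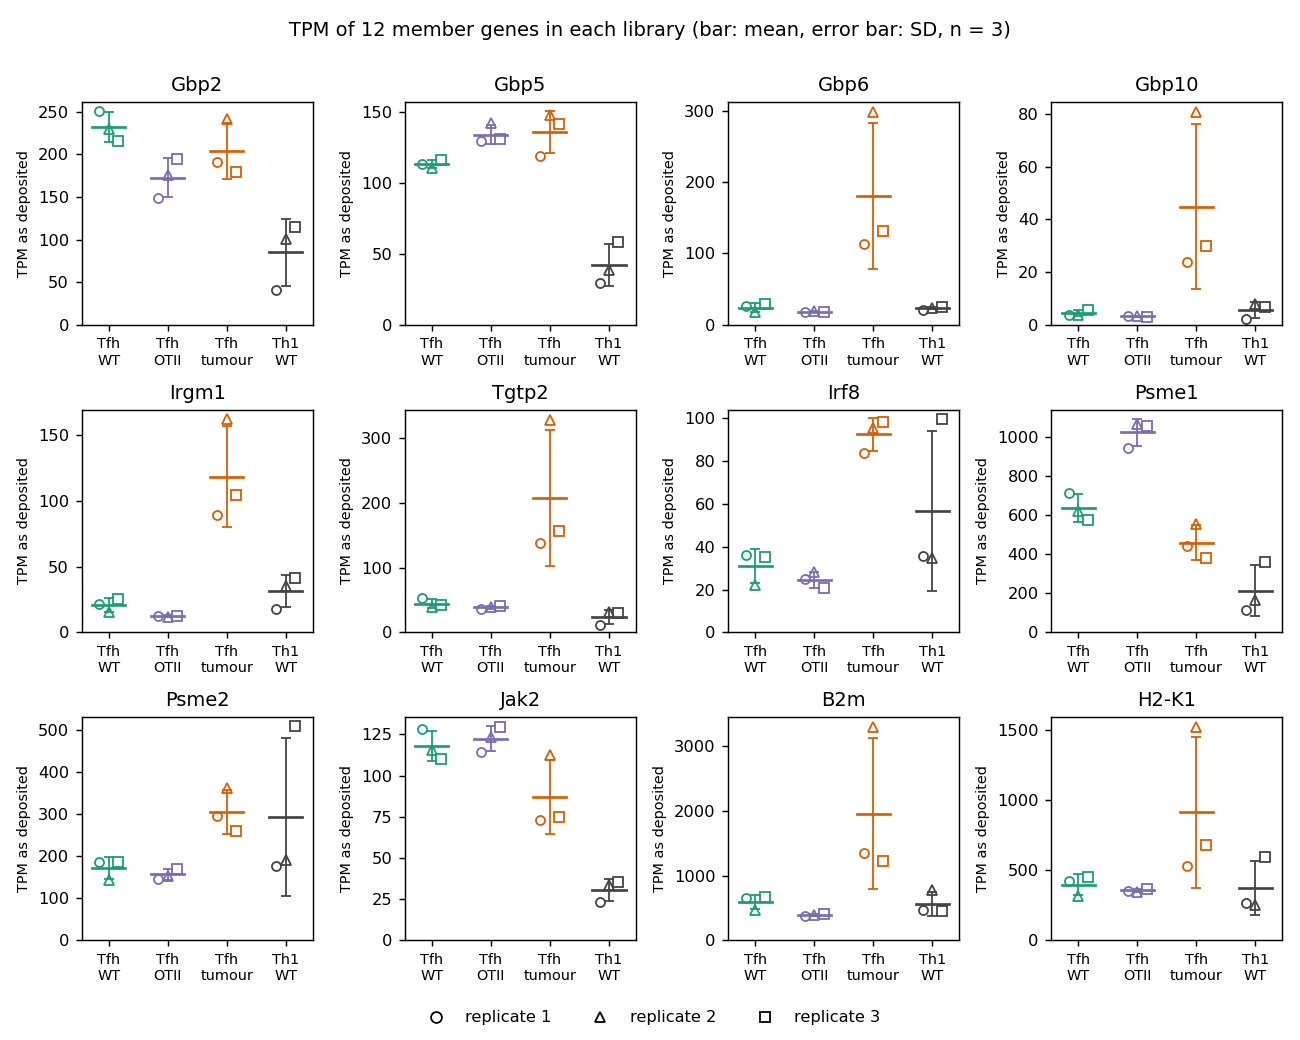
TPM as deposited of 12 members in each library (points), by group, with bars for the mean and error bars for the SD of 3 libraries. Gbp10, Gbp6, Irgm1 and Tgtp2 are higher in every tumour library than in any other library, whereas Gbp2 in Tfh_tumour lies within the range of the cultured Tfh groups.

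Immunity-related GTPases work with the guanylate-binding proteins at pathogen vacuoles: Iigp1, Tgtp1 and Tgtp2 attack the vacuole membrane, and Irgm1, Irgm2 and Igtp regulate them. Irgm1 (chromosome 11, 48861968 to 48871683, minus strand) stood at 21.7, 15.6 and 25.8 TPM in Tfh_WT, 12.9, 11.9 and 12.6 in Tfh_OTII, 17.99, 35.4 and 41.5 in Th1_WT and 89.4, 162 and 105 in Tfh_tumour. The tumour libraries were the highest and the Tfh_OTII libraries the lowest, with no overlap of either with the rest. Its log2 fold change after scaling was 2.27 ± 0.29 against Tfh_WT (adjusted p = 0.00261) and 3.01 ± 0.29 against Tfh_OTII (adjusted p = 5.98e-05). Against Th1_WT it was 1.91 ± 0.32 as deposited and 0.72 ± 0.29 after scaling (adjusted p = 0.000471 and 0.0995), the latter short of the threshold.

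Iigp1, on chromosome 18, stood at 21.6, 11.005 and 27.2 TPM in Tfh_WT, 12.7, 14.1 and 12.7 in Tfh_OTII, 8.57, 25.5 and 14.2 in Th1_WT and 93.8, 129 and 87.3 in Tfh_tumour. All tumour libraries were above all others, and the cultured groups overlapped one another. Scaled log2 fold changes were 2.23 ± 0.39 against Tfh_WT (adjusted p = 0.0117), 2.76 ± 0.39 against Tfh_OTII (adjusted p = 0.00071) and 1.55 ± 0.39 against Th1_WT (adjusted p = 0.0168; 2.71 ± 0.37 as deposited), the last at 1.45 and not passing without tumour replicate 2.

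Tgtp2 (chromosome 11, 49057194 to 49064206, minus strand) stood at 52.5, 39.3 and 42.2 TPM in Tfh_WT, 36.6, 39.2 and 41.4 in Tfh_OTII, 11.7, 30.97 and 30.4 in Th1_WT and 139, 328 and 157 in Tfh_tumour. Its near copy Tgtp1, with which it shares 89.2% of its 31-base words, stood at 45.2, 32.4 and 40.6 TPM in Tfh_WT and 64.8, 84.97 and 60.4 in Tfh_tumour. The tumour libraries were the highest for both on this scale. Tgtp2 was higher by 1.95 ± 0.37 after scaling against Tfh_WT (adjusted p = 0.0164; 1.64 and not passing without tumour replicate 2), by 2.19 ± 0.37 against Tfh_OTII (adjusted p = 0.00193) and by 1.87 ± 0.37 against Th1_WT (adjusted p = 0.00484; 3.05 ± 0.37 as deposited). Tgtp1 differed by 0.67 ± 0.28, 0.84 ± 0.28 and 0.27 ± 0.28 after scaling in the same comparisons and was called in none, although 1.45 ± 0.27 against Th1_WT passed as deposited (adjusted p = 0.000985). With sequences this alike the split of reads between the pair is uncertain.

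Of the regulatory members, Irgm2 ranged over 7.86 to 67.8 TPM and was higher in the tumour group by 1.64 ± 0.28 against Tfh_WT and 1.88 ± 0.28 against Tfh_OTII, and against Th1_WT it gave 1.67 ± 0.31 as deposited and 0.51 ± 0.28 after scaling (adjusted p = 0.00101 and 0.231), which was not called. Igtp, whose gene model overlaps that of Irgm2, ranged over 53.6 to 287 TPM and was called in none of the 5 comparisons on both scales (0.79 ± 0.30 against Tfh_WT and 0.94 ± 0.30 against Tfh_OTII).

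The receptor chains and their kinase stand upstream of the other members. Ifngr1, the ligand-binding chain (chromosome 10, 19591949 to 19610229, plus strand), stood at 60.4, 40.5 and 59.1 TPM in Tfh_WT, 69.6, 69.8 and 83.1 in Tfh_OTII, 7.40, 8.73 and 10.8 in Th1_WT and 55.9, 386 and 116 in Tfh_tumour. Every Th1_WT library was below every other library, and tumour replicate 2 was 4.51 times the mean of the other tumour libraries. The log2 fold change of Tfh_tumour against Th1_WT was 2.65 ± 0.46 after scaling (adjusted p = 0.00268; 3.79 ± 0.50 as deposited) and 1.97 after scaling, still passing, without that library. Tfh_WT exceeded Th1_WT by 2.43 ± 0.50 as deposited and by 1.43 ± 0.46 after scaling (adjusted p = 0.00218 and 0.0533), so it was not called. Among the Tfh groups the differences after scaling did not pass: 1.21 ± 0.46 for Tfh_tumour against Tfh_WT (adjusted p = 0.229), 0.79 ± 0.46 for Tfh_tumour against Tfh_OTII (adjusted p = 0.284) and, for Tfh_OTII against Tfh_WT, 0.43 ± 0.46 (adjusted p = 0.822).

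Jak2, the kinase bound to Ifngr2 (chromosome 19, 29251828 to 29313080, plus strand), stood at 128, 115 and 110.2 TPM in Tfh_WT, 114, 124 and 129.5 in Tfh_OTII, 23.1, 33.5 and 35.6 in Th1_WT and 73.1, 113 and 74.6 in Tfh_tumour. The Th1_WT libraries were the lowest here too as deposited. On that scale tumour replicates 1 and 3 lay below both cultured Tfh groups, and replicate 2 fell inside the Tfh_WT range. After scaling, every tumour library lay below every library of both cultured Tfh groups. Tfh_WT exceeded Th1_WT by 1.93 ± 0.23 as deposited and 0.88 ± 0.24 after scaling (adjusted p = 7.54e-05 and 0.0282). This call ended when Tfh_WT replicate 1, 2 or 3 or Th1_WT replicate 1 or 3 was left out, each of which brought the count of members higher to 0. Jak2 differed by −0.60 ± 0.24 between Tfh_tumour and Tfh_WT (adjusted p = 0.264), −0.60 ± 0.24 between Tfh_tumour and Tfh_OTII (adjusted p = 0.115) and −0.01 ± 0.24 between the cultured Tfh groups (adjusted p = 1), all after scaling. Tfh_tumour against Th1_WT gave 1.46 ± 0.23 as deposited and 0.27 ± 0.24 after scaling (adjusted p = 0.000354 and 0.458), so it was not called. Ifngr2, the signalling chain, ranged over 3.94 to 17.4 TPM and was called in none.

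Among the transcription factors, Irf1 (chromosome 11, 53770014 to 53778374, plus strand) stood at 87.7, 72.8 and 89.5 TPM in Tfh_WT, 74.9, 92.1 and 106 in Tfh_OTII, 56.5, 61.5 and 138 in Th1_WT and 137, 253 and 169 in Tfh_tumour. The tumour libraries exceeded those of both cultured Tfh groups, and Th1_WT replicate 3, far above its own group's other libraries, reached the lower edge of the tumour range. None of its differences was called: 0.97 ± 0.29 after scaling against Tfh_WT (adjusted p = 0.111), 0.91 ± 0.29 against Tfh_OTII (adjusted p = 0.0496 after scaling and 0.0625 as deposited) and 0.06 ± 0.29 for Tfh_OTII against Tfh_WT (adjusted p = 0.978). Against Th1_WT the sign depended on the scale, with 0.08 ± 0.33 as deposited and −0.98 ± 0.29 after scaling for Tfh_WT (adjusted p = 0.849 and 0.0389), and 1.19 ± 0.33 and −0.01 ± 0.29 for Tfh_tumour (adjusted p = 0.0104 and 0.991).

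Irf8, a partner of Irf1 that is also abundant in myeloid cells, was the 1 factor called against both cultured Tfh groups. It stood at 35.9, 21.995 and 35.2 TPM in Tfh_WT, 25.1, 27.97 and 20.6 in Tfh_OTII, 35.8, 34.5 and 99.7 in Th1_WT and 83.8, 95.3 and 98.1 in Tfh_tumour. Unlike most members it was not highest in tumour replicate 2, and Th1_WT replicate 3 exceeded all of the tumour libraries. Irf8 was higher by 1.43 ± 0.29 on the log2 scale after scaling against Tfh_WT (adjusted p = 0.0228) and 1.79 ± 0.29 against Tfh_OTII (adjusted p = 0.00154). Without tumour replicate 2 the first was 1.48 and no longer passed.

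Nlrc5, the transactivator of MHC class I genes (chromosome 8, 94434356 to 94527272, plus strand), stood at 72.2, 45.96 and 65.1 TPM in Tfh_WT, 49.7, 52.5 and 58.4 in Tfh_OTII, 34.6, 25.001 and 65.5 in Th1_WT and 104, 216 and 130.1 in Tfh_tumour. Every tumour library was above every other as deposited. It was higher than in Tfh_OTII by 1.32 ± 0.29 after scaling (adjusted p = 0.00813; 1.10 and not passing without tumour replicate 2), and 1.10 ± 0.29 against Tfh_WT did not pass (adjusted p = 0.0692). Against Th1_WT it was 1.87 ± 0.35 as deposited and 0.67 ± 0.29 after scaling (adjusted p = 0.000937 and 0.121). Tfh_WT against Th1_WT gave 0.63 ± 0.35 and −0.42 ± 0.29 (adjusted p = 0.153 and 0.349), and Tfh_OTII against Tfh_WT −0.22 ± 0.29 after scaling (adjusted p = 0.866).

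Socs1, the feedback inhibitor of the Jak kinases (chromosome 16, 10782240 to 10785536, minus strand), was called in no comparison. It stood at 16.6, 11.9 and 14.2 TPM in Tfh_WT, 11.01, 13.9 and 11.8 in Tfh_OTII, 5.12, 4.21 and 15.4 in Th1_WT and 15.3, 15.1 and 16.5 in Tfh_tumour. All groups overlapped their neighbours in level. The log2 difference after scaling was 0.00 ± 0.31 between Tfh_tumour and Tfh_WT (adjusted p = 1), 0.25 ± 0.31 between Tfh_tumour and Tfh_OTII (adjusted p = 0.648) and −0.25 ± 0.31 between the cultured Tfh groups (adjusted p = 0.863). Against Th1_WT, Tfh_WT gave 0.91 ± 0.35 as deposited and −0.05 ± 0.31 after scaling (adjusted p = 0.0534 and 0.941), and Tfh_tumour gave 1.04 ± 0.35 and −0.05 ± 0.31 (adjusted p = 0.0262 and 0.943).

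**Figure D4:**
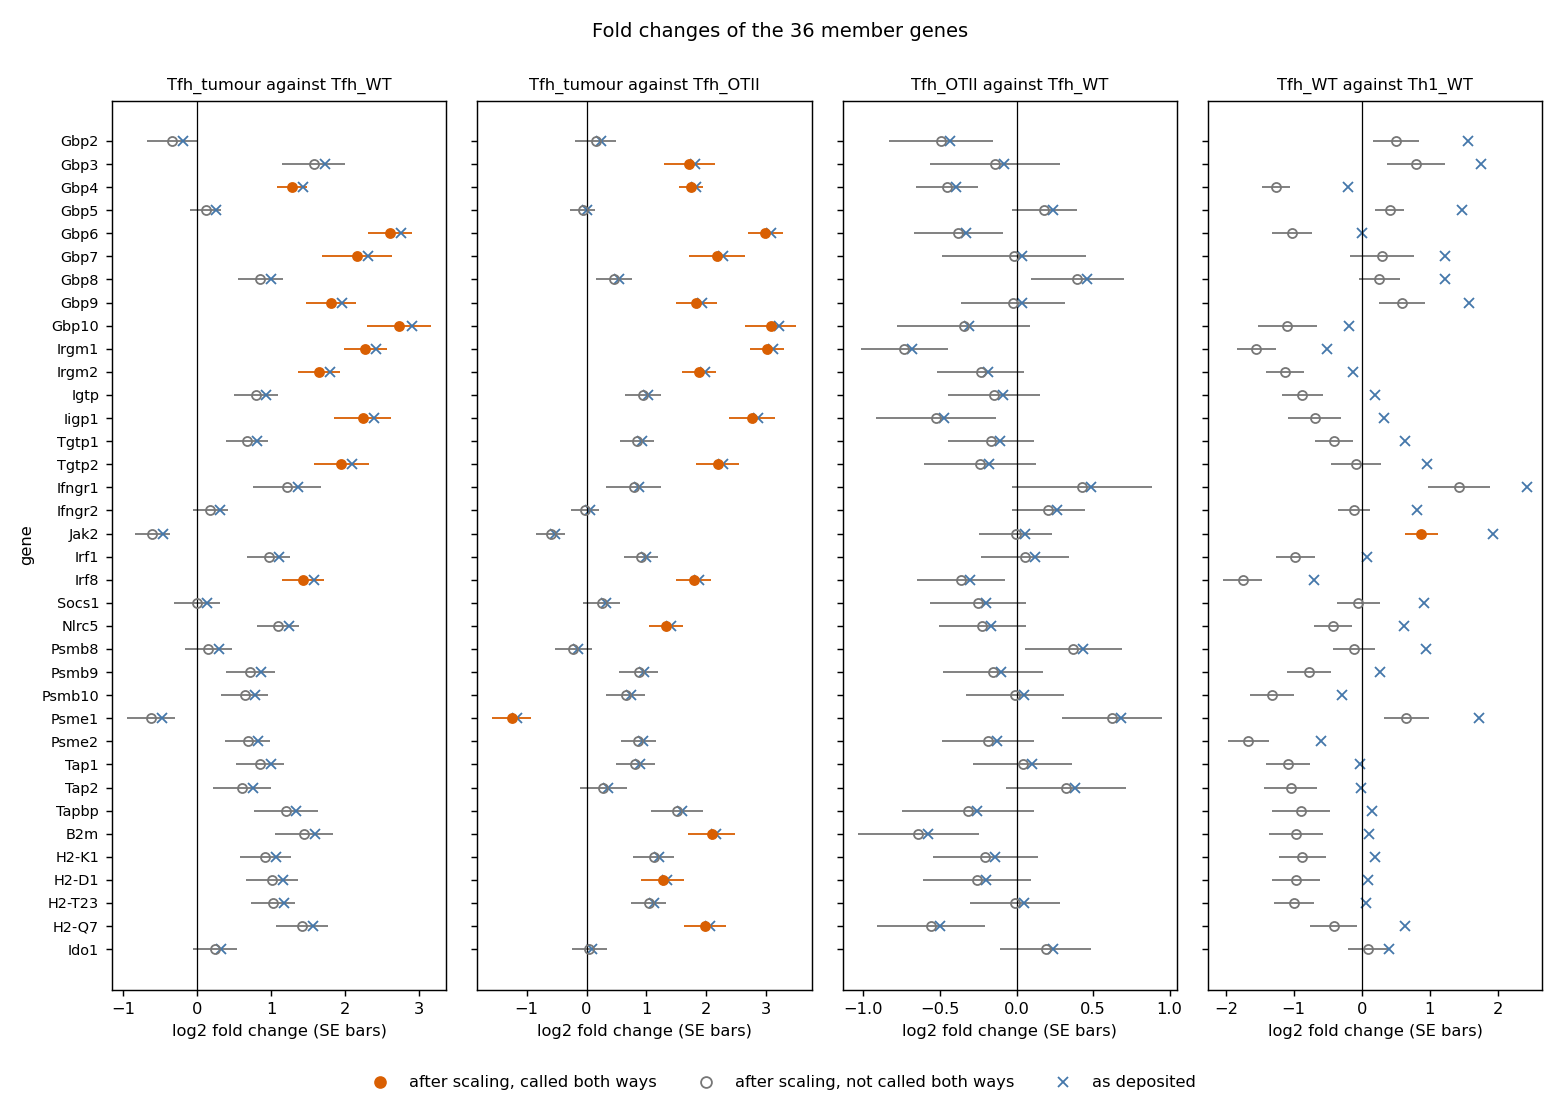
Log2 fold change of each member in 4 comparisons (panels, whose x axes differ), after scaling with its SE (circles, filled where called on both scales) and as deposited (crosses). Against Tfh_WT and Tfh_OTII the crosses lie close to the circles and most GTPases are filled, whereas in Tfh_WT against Th1_WT the crosses lie to the right of the circles and only Jak2 is filled.

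Immunoproteasome subunits replace the constitutive catalytic subunits after interferon and change which peptides are cut. Psmb8 (chromosome 17, 34197721 to 34201454, plus strand), which takes the place of Psmb5, stood at 151, 121 and 129 TPM in Tfh_WT, 178, 168 and 196 in Tfh_OTII, 38.5, 66.5 and 125 in Th1_WT and 134, 228 and 143 in Tfh_tumour. Tfh_OTII and Tfh_tumour overlapped, and the Th1_WT libraries spread widely with replicate 3 the highest. The log2 difference after scaling was 0.15 ± 0.31 against Tfh_WT (adjusted p = 0.948), −0.22 ± 0.31 against Tfh_OTII (adjusted p = 0.7) and 0.37 ± 0.31 for Tfh_OTII against Tfh_WT (adjusted p = 0.75). Against Th1_WT, Tfh_tumour gave 1.24 ± 0.35 as deposited and 0.04 ± 0.31 after scaling (adjusted p = 0.0116 and 0.955), and Tfh_WT gave 0.95 ± 0.35 and −0.11 ± 0.31 (adjusted p = 0.0462 and 0.848). Psmb9, at 14.4 to 85.9 TPM, and Psmb10, at 13.1 to 44.8 TPM, were also called in no comparison on both scales.

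The proteasome activator subunits Psme1 and Psme2 form 1 ring, yet their transcripts ranked the groups in different orders. Psme1 stood at 713, 619.5 and 577 TPM in Tfh_WT, 944, 1064 and 1057 in Tfh_OTII, 117, 164 and 361 in Th1_WT and 442, 555 and 382 in Tfh_tumour. As deposited no groups overlapped, in the order Tfh_OTII, Tfh_WT, Tfh_tumour and Th1_WT. It was lower in Tfh_tumour than in Tfh_OTII, with a log2 fold change of −1.25 ± 0.32 after scaling and −1.17 ± 0.35 on deposited values (adjusted p = 0.0214 and 0.0384). This call ended without tumour replicate 1 or 3 or any 1 of the Tfh_OTII replicates, where the count of members lower was 0. Psme2 stood at 186, 143 and 187 TPM in Tfh_WT, 146, 153 and 170.5 in Tfh_OTII, 176, 192 and 510.5 in Th1_WT and 295, 361 and 259 in Tfh_tumour. Its highest library was Th1_WT replicate 3, and its tumour libraries lay above all cultured Tfh libraries, although 0.68 ± 0.30 against Tfh_WT and 0.87 ± 0.30 against Tfh_OTII did not pass. Of the 31-base words of Psme2, 33.5% also occur in its copy Psme2b, so some of its reads could be assigned elsewhere.

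The transporter and loading genes were called in no comparison on both scales. Tap1 and Tap2, which carry peptides into the endoplasmic reticulum, ranged over 36.2 to 159 and 16.2 to 70.95 TPM, and Tapbp, which bridges the transporter to class I, over 24.9 to 251 TPM. Tap1 stood at 84.8, 159 and 112 TPM in the tumour libraries, 61.8, 48.2 and 62.2 in Tfh_WT and 36.2, 44.5 and 121 in Th1_WT. The tumour libraries exceeded Tfh_WT, and Th1_WT replicate 3 was in their range while the other Th1_WT libraries were below it. Tapbp came nearest to a call, at 1.52 ± 0.43 after scaling against Tfh_OTII (adjusted p = 0.0319) and 1.60 ± 0.51 as deposited (adjusted p = 0.0501). Each of Tap1, Tap2 and Tapbp had its highest value in Tfh_tumour replicate 2 or Th1_WT replicate 3.

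B2m, the invariant light chain of class I (chromosome 2, 122147686 to 122153083, plus strand), was the most abundant member in the tumour group. It stood at 649.96, 464 and 660.4 TPM in Tfh_WT, 378, 396 and 397 in Tfh_OTII, 459.8, 775 and 452 in Th1_WT and 1342, 3305 and 1225 in Tfh_tumour. The tumour libraries were above all others and the Tfh_OTII libraries below all others. It was higher than in Tfh_OTII by 2.09 ± 0.40 after scaling (adjusted p = 0.00395) and 1.71, still passing, without tumour replicate 2. Against Tfh_WT it was 1.59 ± 0.37 as deposited and 1.45 ± 0.40 after scaling (adjusted p = 0.0455 and 0.0825), so it was not called. Tfh_OTII against Tfh_WT gave −0.64 ± 0.40 (adjusted p = 0.609). Against Th1_WT, Tfh_tumour gave 1.69 ± 0.37 as deposited and 0.48 ± 0.40 after scaling (adjusted p = 0.00258 and 0.433), and Tfh_WT gave 0.10 ± 0.37 and −0.97 ± 0.40 (adjusted p = 0.829 and 0.119).

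H2-K1, a classical class I heavy chain (chromosome 17, 33996017 to 34000347, minus strand), stood at 422, 313 and 452 TPM in Tfh_WT, 351, 346 and 367 in Tfh_OTII, 265, 253 and 590.1 in Th1_WT and 529.8, 1522 and 678 in Tfh_tumour. Tumour replicate 2 was the highest library, and Th1_WT replicate 3 lay inside the tumour range. None of its differences was called: 0.92 ± 0.34 after scaling against Tfh_WT (adjusted p = 0.22), 1.12 ± 0.34 against Tfh_OTII (adjusted p = 0.0423 after scaling and 0.0603 as deposited) and −0.20 ± 0.34 for Tfh_OTII against Tfh_WT (adjusted p = 0.916). Against Th1_WT, Tfh_tumour gave 1.26 ± 0.40 as deposited and 0.05 ± 0.34 after scaling (adjusted p = 0.0199 and 0.948), and Tfh_WT gave 0.20 ± 0.40 and −0.87 ± 0.34 (adjusted p = 0.692 and 0.105).

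Of the other heavy chains, H2-D1 and H2-Q7 were called on both scales against Tfh_OTII and in no other comparison, and H2-T23 was called in none. H2-D1, the other classical chain, ranged over 158 to 1042 TPM and was higher by 1.27 ± 0.35 (0.90 and not passing without tumour replicate 2). H2-Q7, a chain of the Qa-2 antigen, ranged over 29.2 to 377 TPM and was higher by 1.98 ± 0.35 (1.52, still passing). H2-T23, the Qa-1 chain, ranged over 40.3 to 240.3 TPM and gave 1.04 ± 0.29 after scaling and 1.12 ± 0.36 on deposited values (adjusted p = 0.031 and 0.051). Against Th1_WT the 3 passed in Tfh_tumour as deposited only: 1.25 ± 0.42 and 0.04 ± 0.35 after scaling for H2-D1, 2.20 ± 0.42 and 1.00 ± 0.35 for H2-Q7, and 1.23 ± 0.36 and 0.03 ± 0.29 for H2-T23. Between 22.8% and 39.1% of the 31-base words of these 4 heavy chains also occur in other genes. Ido1, which degrades tryptophan and is induced by interferon gamma mainly in other cell types, stayed between 0 and 1.62 TPM and was called in no comparison.

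Ratios of partner genes within a library do not depend on the scaling. They were chosen with the levels known and are given as a description, without a test. The ratio of Psme2 to Psme1 was 0.667, 0.651 and 0.680 in the tumour libraries, 0.261, 0.231 and 0.323 in Tfh_WT, 0.155, 0.144 and 0.161 in Tfh_OTII and 1.503, 1.17 and 1.41 in Th1_WT. No 2 groups overlapped, and the 3 tumour libraries, replicate 2 included, were close to one another. The ratio of Irgm1 to Gbp2 was 0.467 to 0.673 in Tfh_tumour and 0.353 to 0.444 in Th1_WT, against 0.0680 to 0.119 in Tfh_WT and 0.0648 to 0.0869 in Tfh_OTII. The ratio of Gbp4 to Gbp2 was 0.575 to 0.687 in Tfh_tumour and 0.472 to 1.18 in Th1_WT, against 0.169 to 0.237 and 0.187 to 0.225. In both ratios the cultured Tfh groups lay below the other 2 groups without overlap. That was so in 5 of the 10 ratios to Gbp2 that were computed (Gbp4, Gbp6, Gbp10, Irgm1 and Igtp) and not for Gbp3, Gbp5, Gbp7, Gbp8 and Gbp9: the ratio of Gbp3 to Gbp2 was 0.0764 to 0.0856 in Th1_WT and 0.0774 to 0.135 in Tfh_WT.

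The exchange of proteasome subunits gave a different order for each pair. The ratio of Psmb8 to Psmb5 was 3.55 to 4.36 in Tfh_OTII and 3.30 to 6.01 in Tfh_tumour, which overlapped, 2.35 to 2.62 in Tfh_WT and 1.01 to 1.54 in Th1_WT. That of Psmb9 to Psmb6 was 0.548 to 0.997 in Tfh_tumour and 0.317 to 0.407 in Tfh_WT, 0.288 to 0.351 in Tfh_OTII and 0.228 to 0.347 in Th1_WT, so the tumour libraries alone stood above the rest. That of Psmb10 to Psmb7 was 0.343 to 0.662 in Tfh_tumour and 0.339 to 0.505 in Th1_WT, above 0.176 to 0.277 and 0.178 to 0.200. The classical heavy chains differed less: the ratio of H2-K1 to H2-D1 was 1.53 to 1.57 in Tfh_WT, 1.55 to 1.70 in Tfh_OTII, 1.42 to 1.49 in Tfh_tumour and 1.34 to 1.60 in Th1_WT. Its tumour libraries lay below every cultured Tfh library and within the Th1_WT range.

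**Figure D5:**
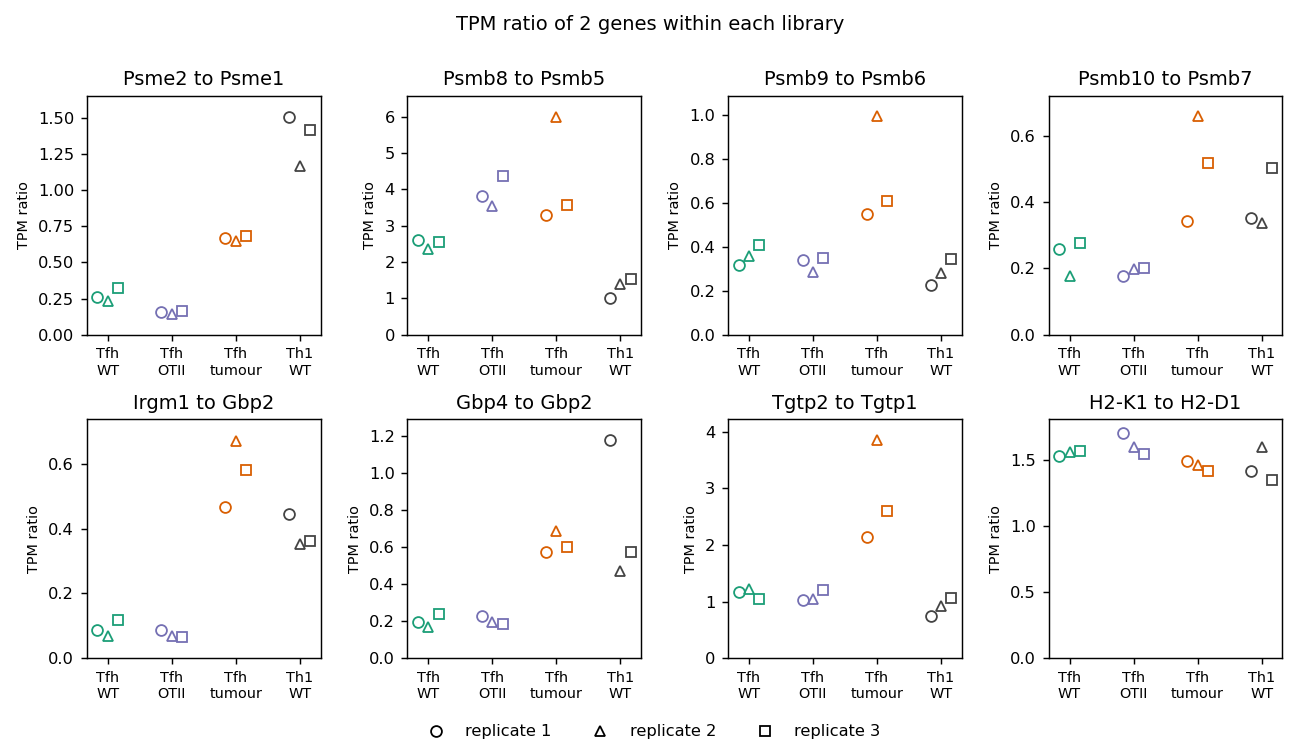
Ratio of the TPM of partner genes in each library, 1 panel per pair and 1 point per library by group. The ratio of Psme2 to Psme1 separates all 4 groups, with the tumour libraries at 0.651 to 0.680, and the ratio of H2-K1 to H2-D1 at 1.42 to 1.49 in Tfh_tumour lies below both cultured Tfh groups and within the Th1_WT range.

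The transcript of the ligand was not highest in the tumour group. Ifng stood at 76.7, 79.9 and 127 TPM in Tfh_WT, 44.6, 35.8 and 56.1 in Tfh_OTII, 56.7, 198 and 151 in Th1_WT and 68.1, 17.6 and 52.7 in Tfh_tumour. Replicate 2 of the tumour group, in which most members were highest, had the lowest Ifng of all 12. After scaling, the mean was 251 in Th1_WT, 80.2 in Tfh_WT, 38.0 in Tfh_OTII and 37.5 in Tfh_tumour. Gbp4, Irgm1 and B2m ranked the 3 cultured groups in the same order after scaling, while Gbp5 and Psme1 did not. Interferon gamma protein was not measured, and the part of the ligand in the members' levels was not tested. Ifng was lower in Tfh_tumour than in Th1_WT, with a log2 fold change of −2.75 ± 0.54 after scaling and −1.56 ± 0.50 on deposited values (adjusted p = 0.00475 and 0.0212), a call that ended without tumour replicate 2.

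Among 22 other genes of the interferon gamma pathway, 8 were higher and 0 lower by limma in Tfh_tumour than in Tfh_WT (1 lower at an unadjusted p below 0.05), 13 and 0 than in Tfh_OTII (0 unadjusted), and 10 and 1 than in Th1_WT. Of all genes, 0.987% and 0.875%, 6.75% and 6.87%, and 10.4% and 0.549% were higher and lower in these comparisons. Without tumour replicate 2 the counts of the list were 5 and 0, 10 and 1, and 6 and 0. The shares of all genes were then 0.549% and 0.677%, 4.58% and 5.26%, and 6.84% and 0.358%. Cxcl10, a chemokine that draws CXCR3+ T cells, was higher by 4.37 ± 0.62, 5.26 ± 0.62 and 2.61 ± 0.62 after scaling in these comparisons (3.67 ± 0.66 as deposited against Th1_WT), and by 3.55, 4.45 and 1.79, all still passing, without tumour replicate 2. Xaf1, an interferon-induced gene of cell death, was higher by 2.83 ± 0.38, 2.91 ± 0.38 and 2.80 ± 0.38 (3.89 ± 0.43 as deposited against Th1_WT). Ciita, the transactivator of MHC class II, was higher than in Tfh_OTII by 1.59 ± 0.35 (1.32 and not passing without that library). In Tfh_OTII against Tfh_WT, Cxcl9 and Cd274 were lower, with log2 fold changes of −1.91 ± 0.28 and −1.23 ± 0.22, and in Tfh_WT against Th1_WT Socs3 was higher (1.57 ± 0.49 after scaling and 2.51 ± 0.53 as deposited) and Ifi47 lower (−1.82 ± 0.29 and −0.76 ± 0.28). Among 14 other genes of peptide loading and class I, 2 were higher than in Tfh_WT (H2-Q6 by 1.57 ± 0.32 and H2-T24 by 1.38 ± 0.27), 3 higher and 1 lower than in Tfh_OTII (the chaperone Canx, at −1.28 ± 0.27) and 4 higher than in Th1_WT. The shares of all genes given above apply here too, and the 1 lower lay near its background of 6.87%. Without tumour replicate 2 the numbers higher were 0, 2 and 2, and both H2-Q6 and H2-T24 ceased to pass against Tfh_WT.

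Of 11 constitutive proteasome genes, limma called 0 in either direction in any of the 5 comparisons on both scales, and at an unadjusted p below 0.05 it called 2 lower in Tfh_tumour than in Tfh_OTII and 0 elsewhere. Psmb5 stood at 40.6, 37.9 and 39.99 TPM in Tfh_tumour and 57.6, 51.8 and 50.3 in Tfh_WT, Psmb6 at 86.9, 86.2 and 82.03 and 103, 77.3 and 88.9, and Psmb7 at 74.8, 67.7 and 61.97 and 85.5, 79.4 and 79.1. Of 22 genes of the type I interferon response, 18 were higher in Tfh_tumour than in Tfh_WT (background 0.987%), 21 than in Tfh_OTII (6.75%) and 21 than in Th1_WT (10.4%). Without tumour replicate 2 these counts were 13, 19 and 19 (0.549%, 4.58% and 6.84%). Stat2 belongs both to this list and to that of the interferon gamma pathway. Ifit3, an interferon-induced gene, was higher than in Tfh_WT by 5.20 ± 0.58, and Rsad2, an antiviral enzyme, by 5.03 ± 0.80. Irf7, a transcription factor of the same response, was higher by 4.29 ± 0.64. Without tumour replicate 2 these were 4.32, 3.95 and 3.38, all still passing. The summed level of the 22 was 568, 4608 and 1250.4 TPM in the tumour libraries and 154 to 206 in Tfh_WT, highest again in replicate 2. The part of the type I response in the members' levels was not tested.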

How the data were processed

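RNA from about 300000 cells per library was made into TruSeq stranded total RNA libraries with Ribo-Zero depletion and read as 75-base pairs, per the labels' protocols. The authors deposited 1 table of TPM per library, made with kallisto on mm10 per the submitters' processing notes; its version and the annotation are not given in the sources used here. TPM are scaled by transcript length and to a fixed total, so levels of different genes can be set side by side, but the depth behind a value is unknown and no counting interval can be given.

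The members and gene lists were chosen with earlier results of these data known. Values were tested with limma 3.58.1 (R 4.3.3) on log2(TPM + 1), where 1 is the pseudocount. The model held 1 mean for each group, used all 12 libraries and let the prior variance follow a trend. It covered the 23308 genes whose group mean reached 1 TPM in any group; p-values were Benjamini-Hochberg adjusted over all of them. Fold changes are on the log2(value + 1) scale, which understates those of low genes. The same fit was run after median-of-ratios scaling over 16404 genes, and a call needed an adjusted p below 0.05 in the same direction in both.

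Named with full values were, per comparison, the called members with the 6 largest changes, and always Irf1, Socs1, Nlrc5, Ifngr1, Jak2, B2m, H2-K1 and Psmb8. From other lists up to 3 called genes in each direction per comparison were named, with Ifng, Ciita, Psmb5, Psmb6 and Psmb7. One further gene of the interferon gamma list is not reported here. Shared sequence was counted as 31-base words of GENCODE M21 transcripts. Alternatives were each scaling alone, trimmed-mean scaling, no filter, a pseudocount of 0.1, a minimum of 5 TPM, only the 2 groups compared, a replicate block and leaving out each library.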

Additional observations from a re-analysis of the deposited data

How the results depend on the processing

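Depth is unknown and each group has 3 libraries, which limits what could be called. Of the member counts, those for Tfh_OTII against Tfh_WT stayed at 0 in every alternative run. In Tfh_WT against Th1_WT the count higher, 1, was 10 on deposited values alone, 2 with a pseudocount of 0.1, 2 with a filter at 5 TPM and 0 to 1 with a library left out; the count lower, 0, was 10 after scaling alone and 0 to 1 with a library left out. In Tfh_tumour against Tfh_WT the count higher, 10, ranged from 3 to 13 with a library left out, and in Tfh_tumour against Th1_WT the counts were 31 higher on deposited values alone and 1 lower after scaling alone. In Tfh_tumour against Tfh_OTII the count lower, 1, was 0 without a filter, 0 with a replicate block and 0 to 1 with a library left out. Shares of all genes called were not counted in the runs with another pseudocount, filter or block. They were counted without Tfh_tumour replicate 2 but not without any other library.

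Replicate numbers shared between groups gave no sign of pairing: correlations of deviations between libraries of the same number ran from −0.39 to 0.30, with a median of −0.05. Between libraries of different numbers they ran from −0.28 to 0.36, with a median of 0.03. Deviations from a mean of 3 libraries are constrained, so these values cannot settle whether libraries shared a source. With the number as a block, the counts higher and lower were 1 and 0, 0 and 0, 9 and 0, 9 and 0, and 14 and 0 in Tfh_WT against Th1_WT, Tfh_OTII against Tfh_WT, and Tfh_tumour against Tfh_WT, Th1_WT and Tfh_OTII.

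Of 741 single-gene alternatives over 57 gene-by-comparison values, 646 kept direction and side of the threshold, 56 no longer passed, 15 came to pass and 24 changed sign. In Tfh_WT against Th1_WT, under median-of-ratios and trimmed-mean scaling, the log2 fold change was −0.98 and −0.997 for Irf1, −0.050 and −0.064 for Socs1, −0.42 and −0.44 for Nlrc5, −0.11 and −0.13 for Psmb8, −0.97 and −0.99 for B2m, and −0.87 and −0.89 for H2-K1. The same scalings gave −0.0051 and −0.037 for Jak2 in Tfh_OTII against Tfh_WT, and in Tfh_tumour against Th1_WT −0.012 and −0.017 for Irf1 and −0.047 and −0.051 for Socs1. With a library left out, the deposited values in Tfh_WT against Th1_WT ran from −0.15 to 0.49 for Irf1, from −0.032 to 0.36 for B2m and from −0.017 to 0.59 for H2-K1, and Psmb8 in Tfh_tumour against Tfh_OTII from −0.38 to 0.0019. The cause of the library effects was not tested.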

Other observations

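A pair of comparisons that share no library could be set side by side: Th1_WT minus Tfh_WT and Tfh_tumour minus Tfh_OTII, both after scaling. Across the 36 members, which share these libraries and their size factors and are not independent replicates, Pearson's r was 0.44 and Spearman's rho 0.41, and across the 15 GTPases r was 0.56. Across all 23308 genes tested r was 0.14. Without Tfh_tumour replicate 2 the members' r was 0.50 over the 35 of them that passed the filter. The windows of Tap1 and Psmb9, neighbours on chromosome 17 that are read in opposite directions, share 275 bases, and the ratio of Tap1 to Tap2 was 1.98 to 2.30 in Tfh_WT, 1.57 to 1.88 in Tfh_OTII, 2.33 to 2.64 in Tfh_tumour and 1.71 to 2.75 in Th1_WT.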
